A study of Homo sapiens with 16 samples.

Results

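The levels of 8 genes were examined that encode surface antigens of prostate cancer cells against which drugs, antibodies or engineered T cells have been directed. They are FOLH1 (the gene of prostate-specific membrane antigen, PSMA), STEAP1, STEAP2, STEAP3, STEAP4, CD276 (also called B7-H3), PSCA and NECTIN4. The rule that picks them is a list of names and uses no measured value, and they are 8 of the 60642 gene symbols in the deposited table. RNA was sequenced in bulk from LNCaP, a human prostate cancer cell line that grows in response to androgen, so the results describe a single line in culture. Every culture grew for 72 h in RPMI with 5% fetal bovine serum and was then depleted of androgen for 48 h by a change to 5% charcoal-stripped serum. Treatment lasted 48 h. The group VEH received only the solvents ethanol and DMSO, and the group DHT received 10 nM dihydrotestosterone, the most potent natural androgen. The groups BIC.VEH, ENZ.VEH and APA.VEH received 10 µM of bicalutamide, enzalutamide or apalutamide without DHT, and BIC.DHT, ENZ.DHT and APA.DHT received the same antagonist together with 10 nM DHT. Each of the 8 groups had 2 libraries, 16 in all, which the labels number as biological replicates 1 and 2. Values are TPM, transcripts scaled to a common total, a level corrected for transcript length, so levels of different genes can be compared within a library.

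Androgens are steroid hormones that maintain the prostate epithelium, raising some of its genes while lowering others. Bicalutamide, enzalutamide and apalutamide are non-steroidal antiandrogens used against prostate cancer. Enzalutamide and apalutamide share a thiohydantoin ring and differ in having a dimethyl group or a spiro-cyclobutane on it and a benzene or a pyridine ring beside it, whereas bicalutamide is a sulfonyl propanamide. PSMA is a membrane peptidase that cleaves glutamate from folates and from a neuropeptide, and it is the target of radioligands for imaging and therapy. The STEAP proteins are membrane proteins of a metalloreductase family. STEAP2, STEAP3 and STEAP4 can reduce iron and copper, STEAP3 being best known in red cell precursors, while STEAP1 lacks the domain that binds the electron donor. CD276 belongs to the B7 family of immune checkpoint ligands. PSCA is a small glycolipid-anchored protein of the Ly6 family, and NECTIN4 is an adhesion protein and the target of an antibody-drug conjugate used in urothelial cancer.

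RefSeq's gene table for GRCh38.p14 gave the positions. FOLH1 lies on chromosome 11 (49145092 to 49208602), STEAP3 on chromosome 2 (119223834 to 119265652), CD276 on chromosome 15 (73683944 to 73714514) and NECTIN4 on chromosome 1 (161070998 to 161089558). The other 3 STEAP genes share chromosome 7. STEAP1 (90154469 to 90164827) and STEAP2 (90211740 to 90243408) are neighbours 46.9 kb apart, and STEAP4 (88270892 to 88306894) lies about 1850 kb from STEAP1.

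Promoter windows from RefSeq were examined for 6 of the 8 genes, all but FOLH1 and PSCA. The counts below leave out FOLH1 and PSCA, and whether RefSeq lists windows for them is not shown here. The 250 bases before the start are shown 5′ to 3′ on the gene's strand for STEAP1 and STEAP2, neighbours whose levels differed in their relation to DHT and for STEAP4, which was detected at 1 TPM or more in the DHT libraries alone. Capitals mark matches to the GC box (GGGCGG, or CCGCCC on the other strand), searched on both strands.
STEAP1: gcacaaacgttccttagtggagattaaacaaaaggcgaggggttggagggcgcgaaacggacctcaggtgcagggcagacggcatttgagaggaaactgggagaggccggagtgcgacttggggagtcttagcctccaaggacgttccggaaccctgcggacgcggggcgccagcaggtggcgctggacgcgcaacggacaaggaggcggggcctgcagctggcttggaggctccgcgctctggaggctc
STEAP2: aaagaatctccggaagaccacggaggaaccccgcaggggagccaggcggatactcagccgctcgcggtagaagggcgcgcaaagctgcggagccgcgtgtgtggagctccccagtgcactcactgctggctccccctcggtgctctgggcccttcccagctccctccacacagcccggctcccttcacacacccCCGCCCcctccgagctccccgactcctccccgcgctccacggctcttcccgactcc
STEAP4: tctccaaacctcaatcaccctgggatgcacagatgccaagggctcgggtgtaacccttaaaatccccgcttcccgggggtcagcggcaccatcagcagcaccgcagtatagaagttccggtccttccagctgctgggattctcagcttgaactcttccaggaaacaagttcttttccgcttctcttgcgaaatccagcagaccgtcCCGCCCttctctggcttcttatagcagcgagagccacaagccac
These windows are chr7:90154219-90154468 on the plus strand, chr7:90211490-90211739 on the plus strand and chr7:88306895-88307144 on the minus strand. The STEAP1 window held no match. The first STEAP2 window held a GC box that began 56 bases before the start, and that of STEAP4 a GC box 44 bases before the start. NECTIN4 held GC boxes that began 153 and 85 bases before the start. STEAP3 and CD276 held GC boxes as well. Of the 8 windows of the 6 genes, 6 held a GC box, beside 42.6% of all 35116 promoter windows of this length. A match describes these letters only and is not a measured binding site.

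The libraries matched their labels where the androgen response could be checked. KLK3, which encodes prostate-specific antigen and is a classical androgen-induced gene, had 53.04 and 24.01 TPM in VEH and 4102.26 and 2422.36 TPM in DHT. With an antagonist and no DHT it had 358.12 and 205.68 TPM in BIC.VEH, 72.87 and 71.54 in ENZ.VEH and 30.41 and 20.38 in APA.VEH. The BIC.VEH libraries and the ENZ.VEH libraries were thus all above both VEH libraries, differences that the unpaired fit did not call. All 3 androgen-response genes examined (KLK3, TMPRSS2 and FKBP5) rose with DHT (limma, adjusted p below 0.05), and all 3 fell against DHT with ENZ and with APA. With BIC 2 of 3 fell in the unpaired fit, and KLK3 (log2 fold change -2.36, limma adjusted p = 0.081) fell when the replicate number was a block (limma, adjusted p = 0.0012). The luminal keratin KRT8 had a mean of 683 TPM over the 16 libraries, KRT18 of 559 TPM, and the prostate transcription factor HOXB13 of 192 TPM. Markers of basal cells (KRT5, KRT14, TP63) summed to at most 1.75 TPM, of immune cells (PTPRC, CD3E, CD68, LYZ) to at most 12.2 TPM, nearly all of it CD68, with CD3E at 0 throughout, and of endothelium (PECAM1, VWF, CDH5) to at most 1.90 TPM. Stromal markers (COL1A1, COL3A1, DCN, LUM) summed to between 29.96 and 34.83 TPM in VEH and between 12.27 and 17.19 TPM in DHT, nearly all of it COL1A1, and the basal sum was between 0.06 and 0.11 TPM in VEH and between 1.68 and 1.75 TPM in DHT. The part of these genes in the results below was not tested. TPM keeps no read depth, so no counting interval can be given. Precision was judged only from the spread between the 2 replicates, pooled over the groups of a fit. In bulk RNA, fewer cells with a transcript and less of it per cell cannot be told apart.

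FOLH1 was the most abundant of the 8 in all 16 libraries. It ran from 647 to 1022 TPM with a median of 929 TPM, ranked between 117 and 194 among all genes of a library, and made up between 43.4% and 50.6% of the summed TPM of the 8. STEAP1 followed with 344 to 403 TPM, STEAP2 with 221 to 376 TPM and CD276 with 187 to 301 TPM. NECTIN4 (12.36 to 23.48 TPM), PSCA (7.95 to 16.8 TPM) and STEAP3 (2.61 to 7.56 TPM) were far lower, and STEAP4 was between 0 and 1.69 TPM. The order FOLH1, STEAP1, STEAP2, CD276, NECTIN4, PSCA, STEAP3, STEAP4 held in 10 of 16 libraries. The others exchanged neighbours in it, namely STEAP1 with STEAP2, STEAP2 with CD276, or NECTIN4 with PSCA, whose ranges overlapped. The relative spread was smallest for STEAP1, whose highest library was 1.17 times its lowest, against 1.58 times for FOLH1, 1.70 times for STEAP2 and 2.90 times for STEAP3.

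**Figure D1:**
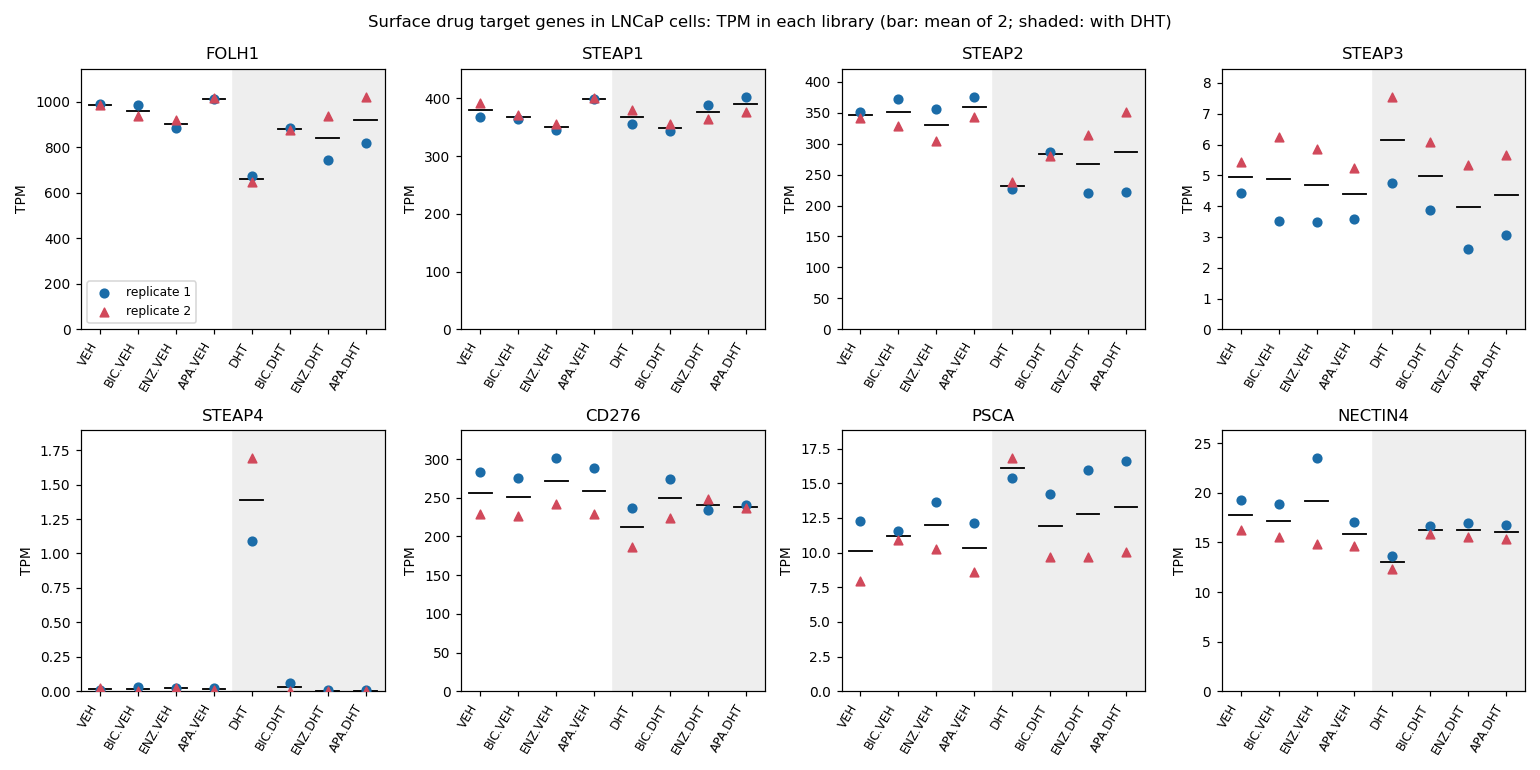
TPM of each of the 8 genes in each of the 16 libraries, with replicate 1 as circles, replicate 2 as triangles, the mean of both as a bar, and the groups with DHT shaded; each panel has its own axis from 0. Both DHT libraries sit lowest for FOLH1. For STEAP2 the mean is lowest in DHT, but replicate 1 of ENZ.DHT and of APA.DHT lies below both DHT libraries. STEAP1 is level across the groups, and STEAP4 reaches 1.09 and 1.69 TPM in the DHT libraries and at most 0.06 TPM elsewhere.

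The comparison of DHT with VEH asked how androgen alone related to each level. FOLH1 fell with DHT, to 0.670 of its mean in VEH, and STEAP4 was near 0 in VEH and above 1 TPM in DHT. STEAP1 had nearly the same level in both groups, STEAP2 was lower in both DHT libraries by as much as FOLH1 without passing the test, and the other 4 had smaller or less even differences. Of the 8 genes, 2 were called, 1 higher and 1 lower (limma, adjusted p below 0.05 over all genes tested), beside a background of 10.3% of 16636 tested genes, 3.63% higher and 6.64% lower. STEAP4 passed the filter on low values through its DHT libraries alone, so it had to differ there and in every comparison with DHT. Its calls carry no weight in any count, and its levels are a description. The 2 groups did not overlap for 5 of the 8 genes, beside 56.5% of all tested genes. STEAP4 had to be among the 5, and even with it the count of separated genes was near the background. The median log2 fold change of the 8 was -0.16, beside -0.098 for all tested genes. Median-ratio scaling of the libraries brought the median of all genes to 0 and moved the values of the 8 upwards.

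FOLH1 had 988.96 and 984.22 TPM in VEH and 675.18 and 646.72 TPM in DHT. Both DHT libraries were below all 14 others. The means were 987 ± 3.35 TPM in VEH and 661 ± 20.1 TPM in DHT (SD, n = 2 each), a log2 fold change of -0.58 on the log2(TPM + 1) scale with an SE of 0.14 and a 95% interval from -0.88 to -0.28 (limma, adjusted p = 0.022). After median-ratio scaling the log2 fold change was -0.46 (adjusted p = 0.033). The call rested on all 4 libraries of the comparison: leaving out DHT replicate 1, DHT replicate 2, VEH replicate 1 or VEH replicate 2 gave log2 fold changes of -0.61, -0.55, -0.57 and -0.58 with limma adjusted p of 0.077, 0.12, 0.12 and 0.096. A fit of the DHT and VEH libraries alone gave a limma adjusted p of 0.11. With the replicate number as a block FOLH1 stayed called (SE 0.11, limma adjusted p = 0.0033). RSEM shares reads between near-identical genes, and FOLH1B, a close copy, had a mean of 1.10 TPM.

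STEAP1 and STEAP2 are neighbours on the chromosome, and their levels stood apart with DHT. STEAP1 had 367.14 and 391.85 TPM in VEH and 356.03 and 380.16 TPM in DHT, so the groups overlapped. Its log2 fold change was -0.044 with an interval from -0.26 to 0.17 (limma, adjusted p = 0.83), and after median-ratio scaling it was 0.076, so no direction can be given. STEAP2 had 351.24 and 342.11 TPM in VEH and 226.12 and 238.49 TPM in DHT, with no overlap. The ratio of its means, DHT over VEH, was 0.670, the same as for FOLH1. Its log2 fold change was -0.58 with a larger SE of 0.21 (interval -1.04 to -0.12), which did not pass the threshold (limma, adjusted p = 0.11). That SE pools the spread of all groups, including the ENZ.DHT and APA.DHT pairs, which differed most for STEAP2. A fit of the DHT and VEH libraries alone gave an SE of 0.11 and did not pass either (limma, adjusted p = 0.084). The STEAP2 to STEAP1 ratio within a library was 0.86 to 1.03 in the 8 libraries without DHT and 0.64 and 0.63 in DHT. STEAP1 overlaps the antisense gene STEAP2-AS1, which was between 0.41 and 1.07 TPM. The library kit keeps strand, and whether the counting used it was not given in the sources used here.

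The other 2 STEAP genes were near the bottom of the order. STEAP3 had 4.43 and 5.44 TPM in VEH and 4.74 and 7.56 TPM in DHT. The groups overlapped, with a log2 fold change of 0.25 and an interval from -0.59 to 1.08 (limma, adjusted p = 0.74), and without DHT replicate 2 the value was -0.043. STEAP4 had 0.01 and 0.02 TPM in VEH and 1.09 and 1.69 TPM in DHT. Of the 14 libraries outside DHT, 4 listed STEAP4 at 0 and the highest had 0.06 TPM, so DHT stood apart from every other group. Its log2 fold change of 1.22 depends on the pseudocount and was 3.67 with a pseudocount of 0.1, so no fold is given.

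The remaining 3 genes belong to other families. CD276 had 282.76 and 229.31 TPM in VEH and 236.88 and 186.6 TPM in DHT, which overlapped (log2 fold change -0.28, interval -0.68 to 0.13, limma adjusted p = 0.39). PSCA lies on chromosome 8 (142670297 to 142682725). It had 12.26 and 7.95 TPM in VEH and 15.36 and 16.8 TPM in DHT. Both DHT libraries were above both VEH libraries, with a log2 fold change of 0.65 (SE 0.31, interval -0.026 to 1.32, limma adjusted p = 0.22). With the replicate number as a block, PSCA was called (SE 0.18, limma adjusted p = 0.024). NECTIN4 had 19.26 and 16.29 TPM in VEH and 13.65 and 12.36 TPM in DHT, again without overlap, and a log2 fold change of -0.42 (SE 0.19, interval -0.85 to 0.0078, limma adjusted p = 0.21). With the block NECTIN4 was called as well (SE 0.13, limma adjusted p = 0.035). The block raised the count of called genes among the 8 from 2 to 4, and the share over all tested genes from 10.3% to 27.4%.

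**Figure D2:**
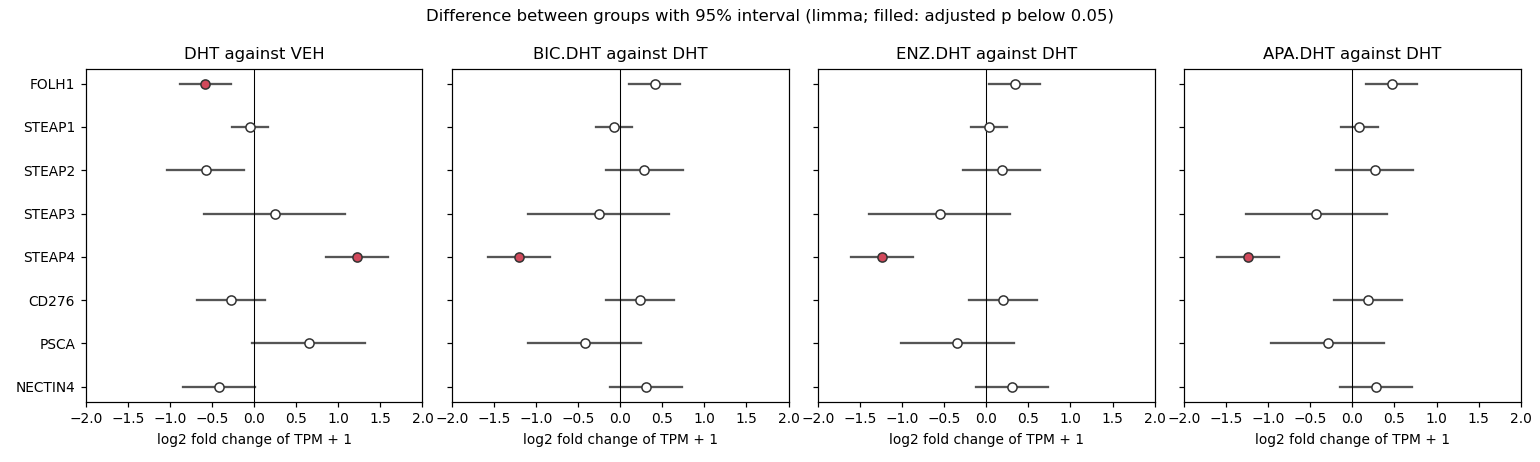
Log2 fold change of TPM + 1 (horizontal axis) with its 95% interval for the 8 genes in DHT against VEH and in each antagonist with DHT against DHT, from the limma fit to all 16 libraries; filled points have an adjusted p below 0.05. FOLH1 lies at -0.58 in the first panel and between 0.34 and 0.47 in the other 3, and STEAP1 lies within 0.1 of 0 in all of them. STEAP4 is filled throughout, but it passed the filter through its DHT libraries alone.

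The comparisons of BIC.DHT, ENZ.DHT and APA.DHT with DHT asked how an antagonist related to these levels while androgen was present. They share the same 2 DHT libraries, so their values are given side by side. STEAP4 was lower with each antagonist, and FOLH1 was higher in all 6 libraries with an antagonist than in either DHT library, without passing the threshold in the unpaired fit to all libraries. Of the 8 genes, 1 was called in each comparison. It was STEAP4 each time, which had to be lower, so none of the other 7 was called, beside 3.13% of all tested genes with BIC, 9.65% with ENZ and 8.36% with APA. Pairing the libraries by replicate number raised these counts to 2, 3 and 3 of 8, STEAP4 included, beside 13.3%, 29.2% and 27.3%. Groups did not overlap for 6 genes with BIC, 3 with ENZ and 3 with APA. STEAP4, which had to separate, is in each of these counts. Over all tested genes the shares were 47% (BIC), 50.9% (ENZ) and 47.9% (APA). The median log2 fold changes of the 8 were 0.081, 0.11 and 0.13, beside 0.0025, -0.014 and 0 for all tested genes.

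FOLH1 had 882.52 and 875.61 TPM in BIC.DHT, 743.67 and 938.46 TPM in ENZ.DHT and 817.86 and 1022.11 TPM in APA.DHT. The BIC.DHT pair agreed closely, whereas replicate 1 lay well below replicate 2 in ENZ.DHT and in APA.DHT. The log2 fold change against DHT was 0.41 with BIC (limma, adjusted p = 0.16, and 0.034 with the block). With ENZ it was 0.34 (limma, adjusted p = 0.15, and 0.042 with the block). With APA it was 0.47 (limma, adjusted p = 0.059, and 0.011 with the block). The size of the ENZ and APA values depended on single libraries, while their sign did not. ENZ was 0.51 without ENZ.DHT replicate 1 (limma, adjusted p = 0.11) and 0.17 without ENZ.DHT replicate 2 (limma, adjusted p = 0.45). APA was 0.63 without APA.DHT replicate 1 (limma, adjusted p = 0.047) and 0.31 without APA.DHT replicate 2 (limma, adjusted p = 0.21). The APA value also passed without the block under median-ratio scaling (0.46, adjusted p = 0.034). The test of whether the DHT response itself differed with an antagonist gave interaction terms of 0.45, 0.47 and 0.43 for BIC, ENZ and APA. Their unadjusted limma p were 0.040, 0.035 and 0.049, and their limma adjusted p 0.45, 0.34 and 0.38. With the block the limma adjusted p were 0.13, 0.090 and 0.11. None passed the threshold, so a different FOLH1 response with the antagonists was not shown.

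STEAP2 had 286.72 and 279.85 TPM in BIC.DHT, 220.81 and 314.38 TPM in ENZ.DHT and 221.31 and 351.42 TPM in APA.DHT. Replicate 1 of ENZ.DHT and of APA.DHT was below both DHT libraries, and replicate 2 of each was nearer to VEH than to DHT. The log2 fold changes of 0.29, 0.18 and 0.26 with BIC, ENZ and APA were within the spread (limma, adjusted p = 0.60, 0.61 and 0.46). Leaving out replicate 2 of ENZ.DHT or of APA.DHT turned the ENZ and APA values to -0.072 and -0.069. STEAP1 in these 6 libraries stayed between 344.22 and 403.28 TPM, with differences from DHT of -0.074, 0.032 and 0.084 on the log2 scale (limma, adjusted p = 0.80, 0.86 and 0.63). The STEAP2 to STEAP1 ratio was 0.83 and 0.79 in BIC.DHT, 0.57 and 0.86 in ENZ.DHT and 0.55 and 0.93 in APA.DHT.

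The difference between replicates in ENZ.DHT and APA.DHT was expressed as the share of the DHT change left. It is 100% where a library equals the DHT library of its own replicate number and 0% where it equals VEH. The zero is VEH without an antagonist, so a difference of the antagonist alone from VEH enters the share. STEAP2 had 304.17 TPM in ENZ.VEH replicate 2 and 314.38 TPM in ENZ.DHT replicate 2. KLK3 had 358.12 and 205.68 TPM in BIC.VEH. The shares are therefore no measure of a remaining DHT response. For FOLH1 it was 33.9% and 32.2% in BIC.DHT, 78.2% and 13.6% in ENZ.DHT, and 54.5% and -11.2% in APA.DHT. For STEAP2 it was 51.6% and 60.1% in BIC.DHT, 104% and 26.8% in ENZ.DHT, and 104% and -8.98% in APA.DHT. For KLK3 the share left was 19.5% and 17.5% in BIC.DHT, 6.0% and 3.79% in ENZ.DHT, and 7.08% and 2.77% in APA.DHT. KLK3 was higher in replicate 1 in every group, VEH and DHT included, so this direction is not particular to ENZ.DHT and APA.DHT. It had 295.82 against 114.86 TPM in ENZ.DHT and 339.82 against 90.35 TPM in APA.DHT, but a large DHT change makes these shares small. Replicate 1 of ENZ.DHT and of APA.DHT was therefore near DHT for STEAP2 while its KLK3 level was far below that of DHT. Mitochondrially encoded genes held 19.4% and 19.2% of the TPM in these 2 libraries and 16.9% and 16.2% in replicate 2 of the same groups, within the range of 14.7% to 22.3% over all 16, and their part in the result was not tested. Without these 2 libraries the log2 differences from DHT were 0.51 with ENZ and 0.63 with APA for FOLH1, and 0.44 and 0.60 for STEAP2. The libraries were singled out after the data were seen and by these same genes, so the values are a description and no test is read from them.

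**Figure D3:**
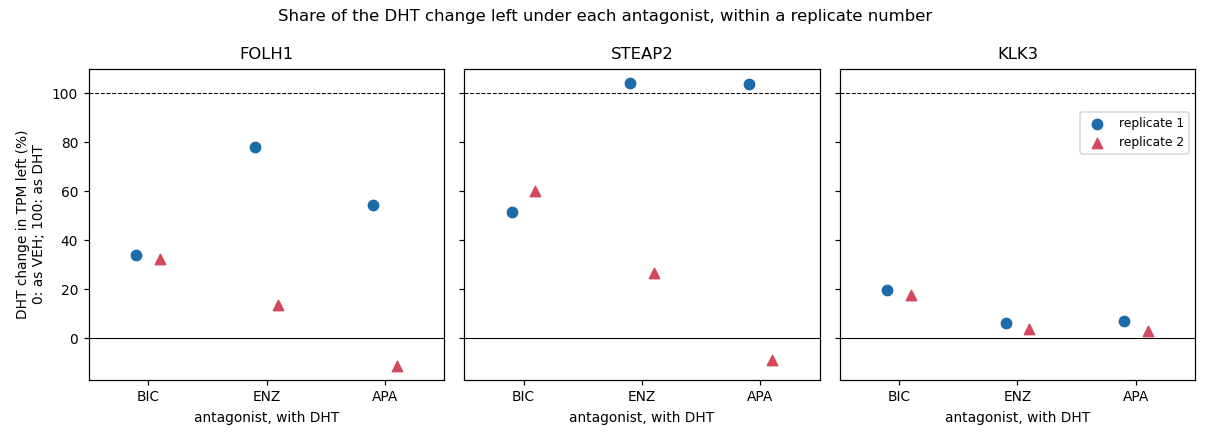
Share of the DHT change in TPM left under each antagonist (vertical axis, %), computed within each replicate number, for FOLH1, STEAP2 and KLK3; the solid line at 0 is the VEH level and the dashed line at 100 the DHT level. Replicates 1 and 2 lie together for BIC and far apart for ENZ and APA in FOLH1 and STEAP2, and all KLK3 points lie below 20%.

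STEAP4 had 0.06 and 0 TPM in BIC.DHT, 0.01 and 0 TPM in ENZ.DHT and 0.01 and 0 TPM in APA.DHT. All 6 were below both DHT libraries, so the gene lay near 0 with each antagonist as it did in VEH. STEAP4 was also the only member called for the interaction of each antagonist with DHT, beside 0.986%, 1.63% and 1.42% of all tested genes. The filter fixed the direction of those STEAP4 differences in the same way, so the calls carry no weight. None of the other 7 genes was called, so none of them was shown to respond differently to DHT with an antagonist. STEAP3 had 3.86 and 6.09 TPM in BIC.DHT, 2.61 and 5.32 TPM in ENZ.DHT and 3.06 and 5.67 TPM in APA.DHT. Each value was below the DHT library of the same replicate number. The log2 fold changes against DHT were -0.26, -0.55 and -0.43, none called in the unpaired fit (limma, adjusted p = 0.83, 0.38 and 0.52). With the block the ENZ and APA values were called (limma, adjusted p = 0.014 and 0.044) and the BIC value was not (0.27). The ENZ value was -0.15 without ENZ.DHT replicate 1 and -0.96 without replicate 2, and the APA value -0.072 without APA.DHT replicate 1 and -0.79 without replicate 2. Leaving out DHT replicate 2 gave -0.27 with ENZ and -0.14 with APA, none called in these unpaired fits.

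CD276 had 274.65 and 223.52 TPM in BIC.DHT, 234.12 and 248.04 TPM in ENZ.DHT and 240.78 and 236.21 TPM in APA.DHT, each overlapping DHT. Its differences from DHT of 0.24, 0.20 and 0.18 on the log2 scale did not pass (limma, adjusted p = 0.63, 0.53 and 0.58). PSCA had 14.21 and 9.67 TPM in BIC.DHT, 15.94 and 9.68 TPM in ENZ.DHT and 16.59 and 10.04 TPM in APA.DHT. Replicate 1 of each was near the DHT level and replicate 2 well below it, and the log2 differences of -0.42, -0.34 and -0.29 did not pass (limma, adjusted p = 0.60, 0.50 and 0.59). NECTIN4 had 16.67 and 15.83 TPM in BIC.DHT, 17.01 and 15.59 TPM in ENZ.DHT and 16.75 and 15.37 TPM in APA.DHT. All 6 were above both DHT libraries, with log2 differences of 0.30, 0.31 and 0.29 that did not pass (limma, adjusted p = 0.53, 0.34 and 0.39).

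Without DHT, the antagonists were compared with VEH at the same dose and time. FOLH1 had 982.79 and 937.7 TPM in BIC.VEH, 885.64 and 921.13 TPM in ENZ.VEH and 1009.89 and 1016.24 TPM in APA.VEH. For FOLH1, BIC.VEH and ENZ.VEH lay below and APA.VEH above the VEH pair. STEAP1 had 363.95 and 370.81 TPM in BIC.VEH, 345.91 and 355.32 TPM in ENZ.VEH and 399.02 and 400.42 TPM in APA.VEH. For STEAP1, BIC.VEH overlapped the VEH pair, ENZ.VEH lay below it and APA.VEH above it. The share of all tested genes that separate in this way was not computed for these comparisons, so nothing is read from it. STEAP2 had 372.24 and 329.08 TPM in BIC.VEH, 356.15 and 304.17 TPM in ENZ.VEH and 376.09 and 342.85 TPM in APA.VEH. All 3 pairs overlapped VEH. CD276 was between 225.88 and 300.87 TPM in these 6 libraries, NECTIN4 between 14.64 and 23.48, PSCA between 8.59 and 13.65 and STEAP3 between 3.5 and 6.26. STEAP4 was at most 0.03 TPM. None of the 8 was called for any antagonist against VEH, 0 of 8 were below an unadjusted p of 0.05, and the block fit called 0 (limma in each case). Over all tested genes 0% were called for BIC.VEH, 0% for ENZ.VEH and 0.00601% for APA.VEH, and with the block 0.018%, 0% and 0.012%.

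DHT was also compared with its solvent within each antagonist, and the antagonists with each other. Within BIC, ENZ or APA, 0 of 8 genes were called with DHT and 0 were below an unadjusted p of 0.05 (limma). Over all tested genes 0%, 0.00601% and 0.00601% were called there, and with the block, which also called 0 of the 8, 0%, 0.00601% and 0.024%. In the 6 comparisons between antagonists, 3 with DHT and 3 without, 0 of the 8 genes were called and 0 had an unadjusted p below 0.05, and at most 0.012% of all tested genes were called. The block fit called 0 of the 8 as well (between 0.00601% and 0.0842% of all tested genes, with 0.0541% for APA.DHT against BIC.DHT), with 1 unadjusted p below 0.05, for APA.VEH against ENZ.VEH. Enzalutamide and apalutamide, which differ in the dimethyl or cyclobutane group and in a benzene or pyridine ring, gave FOLH1 levels with DHT that differed by 0.13 on the log2 scale (interval -0.17 to 0.43, APA above ENZ). The sign of that difference turned on leaving out APA.DHT replicate 2 (-0.031) or ENZ.DHT replicate 1 (-0.038). Against bicalutamide the FOLH1 difference with DHT was -0.073 for ENZ (interval -0.38 to 0.23) and 0.057 for APA (interval -0.25 to 0.36). For STEAP2 the APA and ENZ difference had an interval from -0.38 to 0.54, for STEAP1 from -0.16 to 0.27 and for STEAP3 from -0.71 to 0.96. These intervals leave room for differences in either direction, so the compounds were not shown to act alike.

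Levels also moved with the replicate number. STEAP3 was higher in replicate 2 in 8 of 8 groups, with a median difference of 0.59 on the log2 scale, which is more than its difference between DHT and VEH. NECTIN4 was higher in replicate 1 in 8 of 8 groups (median -0.17, replicate 2 minus replicate 1). CD276 was higher in replicate 1 in 7 of 8 groups (median -0.30), the exception being ENZ.DHT, and PSCA in 7 of 8 (median -0.48), the exception being DHT. FOLH1 had no common direction, with 4 groups each way. Its largest differences, and those of STEAP2, were in ENZ.DHT and APA.DHT.

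**Figure D4:**
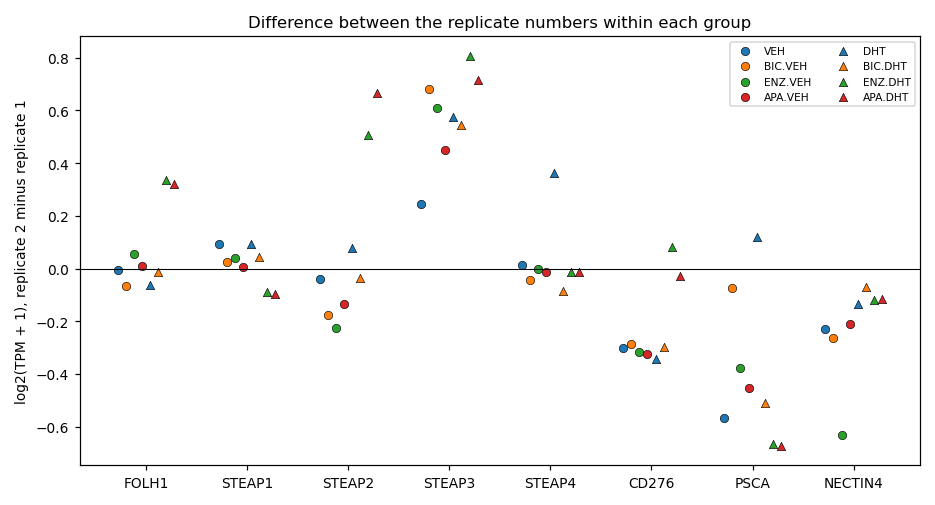
Difference in log2(TPM + 1) between replicate 2 and replicate 1 within each of the 8 groups (1 marker per group; circles without DHT, triangles with DHT) for each gene. All STEAP3 points lie above 0 and all NECTIN4 points below it, and ENZ.DHT and APA.DHT stand apart from the other groups for FOLH1 and STEAP2.

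The relatives of each gene were examined as lists drawn from general knowledge with earlier results known, and their counts for DHT are to be read beside the 10.3% of all tested genes called in the unpaired fit and the 27.4% called with the block. Among peptidase and folate relatives of FOLH1, 8 of 11 passed the filter and 1 was called with DHT, NAALADL2, a peptidase-like relative. It had 46.25 and 38.69 TPM in VEH and 24.60 and 22.39 TPM in DHT, and fell by 0.82 on the log2 scale (limma, adjusted p = 0.045). The median of that list was 0.035, beside -0.098 for all tested genes. Among genes of iron and copper handling, on which the STEAP reductases act, 8 of 11 were tested and 1 was called, FTL, the light chain of the iron store ferritin. FTL had 800.64 and 786.59 TPM in VEH and 533.38 and 519.18 TPM in DHT, and fell by 0.59 (limma, adjusted p = 0.010). It was also called higher than in DHT with BIC, ENZ and APA (log2 fold changes 0.53, 0.63 and 0.57, limma adjusted p = 0.041, 0.0088 and 0.015), and the list median for DHT was -0.027. TFRC, the transferrin receptor and a distant relative of FOLH1 that stands in both lists, had 82.55 and 116.26 TPM in VEH and 118.17 and 194.86 TPM in DHT (limma, adjusted p = 0.42, and 0.046 with the block). The block fit called 4 genes of the first list (2 in each direction) and 5 of the second (2 up, 3 down).

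The immune and adhesion families gave no call with DHT in the unpaired fit. Of the B7 family, 6 of 11 were tested and 0 were called (list median 0.067), and the most abundant, the butyrophilin BTN2A1, had 19.94 and 18.27 TPM in VEH and 17.48 and 15.44 TPM in DHT. Of the nectins and their ligands, 5 of 8 were tested and 0 were called (list median 0.11). NECTIN2, the most abundant, had 65.59 and 47.99 TPM in VEH and 70.66 and 51.83 TPM in DHT. With the block 1 gene of each family was called higher with DHT. Of the Ly6 family of PSCA, 4 of 8 were tested and 1 was called, CD59, an inhibitor of complement attack (list median -0.40). CD59 had 136.07 and 123.90 TPM in VEH and 64.11 and 77.45 TPM in DHT, and fell by 0.87 (limma, adjusted p = 0.0019). It was called higher than in DHT with ENZ (0.62, limma adjusted p = 0.015) and APA (0.66, limma adjusted p = 0.011). With BIC the value was 0.52 (limma, adjusted p = 0.059, and 0.017 with the block). The block called 2 of the 4 tested, both lower with DHT.

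Among 20 other epithelial surface antigens pursued as drug targets, 15 were tested, and with DHT 1 was called higher and 3 lower (list median 0.10, beside -0.098 for all tested genes). Over all tested genes 3.63% were called higher and 6.64% lower. With the block 3 were called higher and 3 lower. TMEFF2, a transmembrane protein studied as a prostate antigen, had 12.43 and 13.20 TPM in VEH and 37.27 and 48.24 TPM in DHT and rose by 1.65 on the log2 scale (limma, adjusted p = 0.010). It was lower than in DHT with ENZ (-1.24, limma adjusted p = 0.041) and APA (-1.48, limma adjusted p = 0.021), and with BIC the value was -0.54 (limma, adjusted p = 0.51). The adhesion molecule ALCAM had 79.91 and 75.1 TPM in VEH and 45.08 and 45.29 TPM in DHT and fell by 0.76 (limma, adjusted p = 0.0093). The cadherin CDH3 fell by 0.77 from a low level (1.64 and 2.48 TPM in VEH, 0.59 and 1.00 TPM in DHT, limma adjusted p = 0.044). PTK7, a receptor-like pseudokinase named after its values were seen, had 33.1 and 34.8 TPM in VEH and 21.3 and 25.29 TPM in DHT and fell by 0.53 (limma, adjusted p = 0.046).

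**Figure D5:**
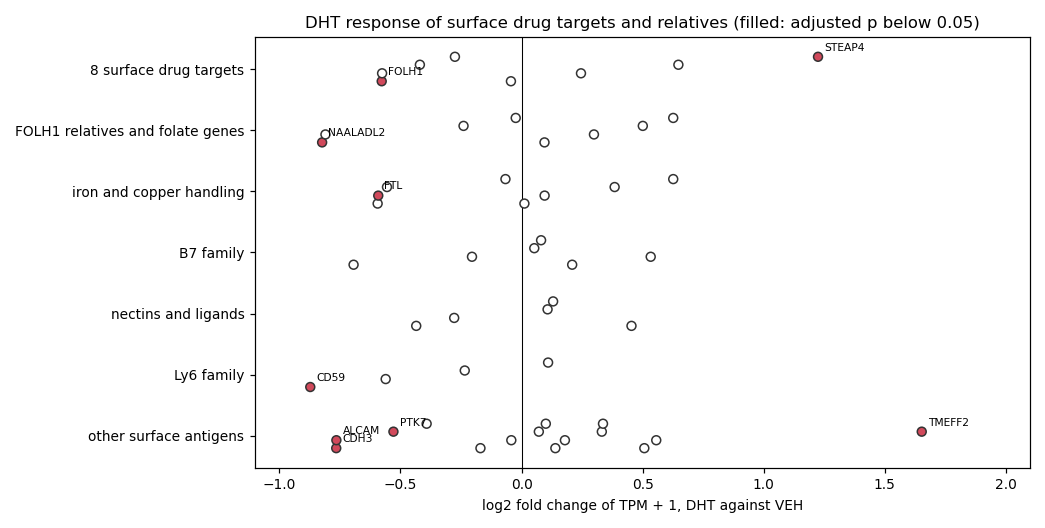
Log2 fold change of TPM + 1 for DHT against VEH (horizontal axis) of every tested gene of the 8 surface drug targets and of 6 related lists, 1 row per list with points spread vertically for legibility only; filled points have a limma adjusted p below 0.05. STEAP4 at 1.22 and TMEFF2 at 1.65 are the called genes on the higher side, and FOLH1 at -0.58 lies among 6 other called genes on the lower side.

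The likeness of patterns was described by Pearson's r over the 8 group means of log2(TPM + 1), without a test, since the groups share the androgen and the antagonists. Among the 8 genes, FOLH1 and STEAP2 had r = 0.90, CD276 and NECTIN4 r = 0.92, and FOLH1 and PSCA r = -0.94. STEAP1 was least like the others, with r between -0.35 and 0.32. Among 11063 tested genes with a mean of at least 5 TPM, those most like FOLH1 were AIDA, HADHA and TXNIP (r = 0.992 each). TXNIP, which encodes a thioredoxin-binding protein, had means of 183.9 TPM in VEH and 88.1 TPM in DHT. Those most like STEAP2 were ENPP4 (0.996), LAMP2 (0.995) and NAP1L2 (0.993), and those most like STEAP1 were PDZD11 (0.958), UBLCP1 (0.944) and AC073261.1 (0.922). STEAP1 hardly varied, so its likenesses rest on small differences. The replicates of AC073261.1 disagreed, since its mean TPM was 7.455 in VEH and 13.8 in DHT while its log2 fold change was -0.65. Those most like STEAP4 were AL354714.2, CBWD1 and ECI2 (r = 0.995 each). STEAP4 lay near 0 in every group but DHT, so its likenesses rest on the DHT group alone. ECI2, an enzyme of fatty acid oxidation, had means of 93.9 TPM in VEH and 195.6 TPM in DHT.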

How the data were processed

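RNA of LNCaP cells was selected for polyadenylated transcripts, prepared with a stranded kit and sequenced as 125 bp paired reads, about 40 M pairs per library per the labels. The authors aligned reads to GRCh38 with STAR (2.7.2b) and estimated levels with RSEM (1.3.3), after FastQC (0.11.9) and Trim Galore (0.6.5), with versions from the submitters' processing notes. The deposited values are TPM per gene symbol, 1 column per library, with no pooling and 0 columns of other samples. Column totals ran from 976190 to 983114. TPM keeps no depth and is relative, so a rise of abundant transcripts lowers the rest.

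Values were transformed as log2(TPM + 1), which understates changes of low genes. The 16636 genes with at least 1 TPM in 2 or more libraries, all 8 members among them, were fitted with limma 3.58.1 (trend) in R 4.3.3 with the 8 group means over all 16 libraries. A gene was called at a Benjamini-Hochberg adjusted p below 0.05 within each of 19 contrasts. Groups and replicate numbers came from the labels. The labels number biological replicates, and nothing says whether they were separate cultures, so p-values measure the spread between these libraries. Deviations of same-numbered libraries correlated between all 28 pairs of groups (r = 0.204 to 0.635), so the numbers were taken to pair the libraries, and the fit with the replicate block is given where it changed the call of a member or the count of a list. The members and lists were chosen with earlier results of these data known. All 8 members were named, with log2 fold changes by the rule that they were called in either fit, did not overlap or were needed as an interval, and others were added for completeness. From each list the 3 called genes with the largest change, otherwise the most abundant, were named. Promoters and positions came from RefSeq (GRCh38.p14). Alternatives were a pseudocount of 0.1, no filter, the block, median-ratio scaling, a fit of only the groups compared and leaving out each library. A luminal marker and a promoter motif among those examined are not reported here.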

Additional observations from a re-analysis of the deposited data

Results flagged for a closer look

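STEAP4 is listed because its response to DHT differed between cells without and with an antagonist. It entered the tested genes through its 2 DHT libraries alone, which fixed this difference, so the values are a description and carry no test. The difference of the responses on the log2(TPM + 1) scale was -1.20 with BIC, -1.25 with ENZ and -1.24 with APA (limma interaction terms). STEAP4 was at 1.09 and 1.69 TPM in DHT and at most 0.06 TPM in the other 14 libraries. It also moved in opposite directions without and with ENZ. The response was 1.22 without ENZ and -0.021 with ENZ, where the levels were 0.02 and 0.02 TPM in ENZ.VEH and 0.01 and 0 TPM in ENZ.DHT. That smaller value lies near 0 TPM.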

How the results depend on the processing

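Each of 19 counts of called genes among the 8 and 25 log2 fold changes was recomputed under the alternatives. With the replicate block, 4 genes were called for DHT against VEH and 2, 3 and 3 for BIC.DHT, ENZ.DHT and APA.DHT against DHT. The calls it changed are those given in the report for FOLH1, STEAP3, PSCA and NECTIN4, and it changed no other call of the 8. When the fit was restricted to the groups compared, 0 were called in these 4 comparisons and in the 3 interactions, and a pseudocount of 0.1 also gave 0 in the 3 interactions. Median-ratio scaling gave 2 for APA.DHT against DHT. Without ENZ.DHT replicate 1 and APA.DHT replicate 1 (added after the data were seen and picked by FOLH1 and STEAP2 themselves, so no test is read from it) the counts were 3, 2, 2 and 3 for DHT, BIC.DHT, ENZ.DHT and APA.DHT. Leaving out 1 library at a time gave 1 for DHT against VEH, 1 to 2 for APA.DHT against DHT and 0 to 1 for each interaction, where the gene called was STEAP4. With no filter, no count moved by over 1.5 times.

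Signs turned only for values that were not called. STEAP1 for DHT against VEH was 0.076 under median-ratio scaling and ranged from -0.091 to 0.0033 on leaving out a library. STEAP3 for DHT against VEH ranged from -0.043 (without DHT replicate 2) to 0.53. STEAP2 ranged from -0.072 (without ENZ.DHT replicate 2) to 0.44 for ENZ.DHT against DHT and from -0.069 (without APA.DHT replicate 2) to 0.60 for APA.DHT against DHT. FOLH1 between antagonists with DHT ranged from -0.24 to 0.094 for ENZ against BIC (above 0 without ENZ.DHT replicate 1), from -0.10 to 0.22 for APA against BIC (below 0 without APA.DHT replicate 2) and from -0.038 to 0.30 for APA against ENZ (below 0 without either). The causes were not tested. With 2 libraries per group and no depth, differences smaller than the intervals given could not be resolved.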
